A study of Plutella xylostella with 12 samples.

Results

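The miRNA miR-274 of the diamondback moth *Plutella xylostella* was followed here through both of its arms, pxy-miR-274-5p and pxy-miR-274-3p. They were selected by name, with the dose difference of the 5p arm in these data already known. They are 2 of the 105 miRNA names listed in 12 small RNA libraries. The 5p arm filled 92 and the 3p arm 17 of the 3390 rows of the deposited counts. The libraries came from whole 3rd instar larvae of the Waite strain, a population described as susceptible to insecticides, that had survived exposure to chlorantraniliprole. The dose was 0.01 ppm, called low here, or 0.1 ppm, called high, and larvae were taken after 6 h or 24 h. Each of the 4 combinations had 3 biological replicates, so every library came from exposed larvae. Unexposed larvae, which the labels mention, were not analysed here. The study asked how larval miRNAs respond to this insecticide, a diamide that opens the ryanodine receptor and so releases calcium in muscle.

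A miRNA hairpin is cut into a duplex whose arms are named 5p and 3p for their side of the hairpin. Usually one arm is loaded into an Argonaute protein, where it represses mRNAs that pair with its seed, and the other is degraded. In *Drosophila* larvae miR-274 is released from glia in extracellular vesicles and acts on the growth of synapses and of tracheal branches through the gene sprouty. That role was described in the fly, and was not examined in these moth libraries. RNA was taken from whole bodies, so a change in the number of cells that make a miRNA and a change in its amount per cell cannot be told apart.

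Total counts ran from 10714 to 41214 per library. Rows with fewer than 5 counts were absent from every file, so an unlisted miRNA is not a measured 0. The muscle miRNA pxy-mir-1-3p was listed in 12 of 12 libraries, and took on average 0.0852% of the counts. Of the 105 names, 73 passed the filter on low counts, and both arms of miR-274 were among them.

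The 5p arm was one of the main miRNAs of these larvae. It took 6.25% ± 0.866 (SD, n = 12) of the counts of a library and was the 6th name by mean share. Its counts ran from 602 to 2965 per library. In low-dose larvae after 6 h it took 5.70%, 5.62% and 6.08% of the counts in replicates 1, 2 and 3. In high-dose larvae after 6 h it took 6.55%, 5.98% and 7.90%. The high-dose range thus began just below the highest low-dose library, and replicate 3 stood above the other 5 libraries of that time.

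After 24 h the 5p arm took 5.36%, 5.51% and 5.14% in low-dose larvae. In high-dose larvae it took 6.99%, 6.84% and 7.34%. The groups did not overlap at this time, and the lowest high-dose library lay above the highest low-dose one, as in 30.1% of the 73 tested names. Exact 95% binomial intervals, which cover counting error only, ran from 5.14% to 5.59% for the first low-dose library and from 6.70% to 7.29% for the first high-dose library at 24 h.

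**Figure D1:**
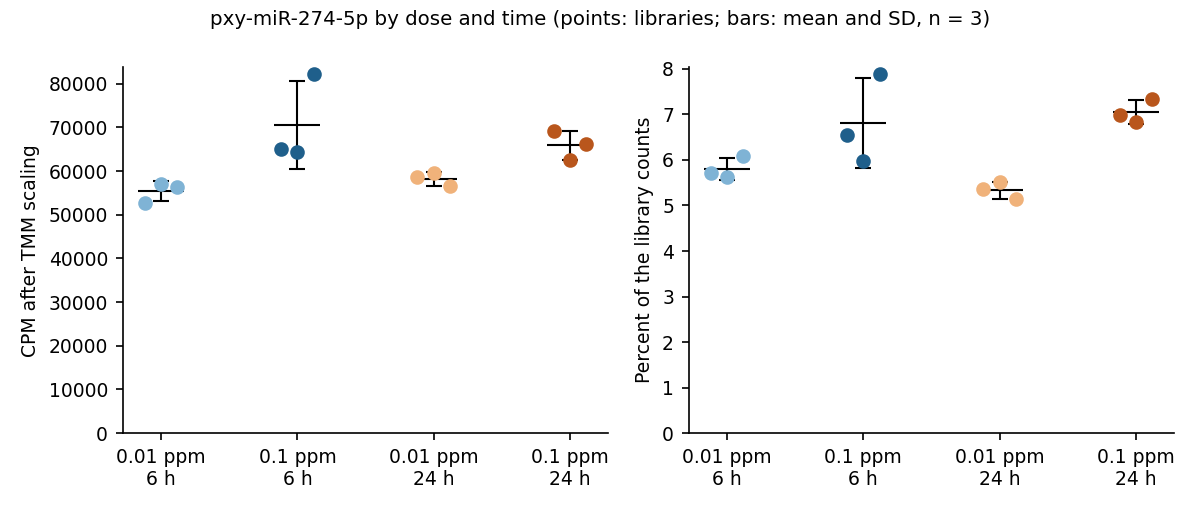
Level of pxy-miR-274-5p in each library, as CPM after TMM scaling (left; both terms are explained in the next paragraph) and as percent of the library's counts (right), for the 4 groups of dose and time. Points are libraries and bars are the mean and SD of 3. In percent the 24 h groups stand apart, at 5.14% to 5.51% and 6.84% to 7.34%, and in CPM they lie nearer together.

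The libraries were also put on a common scale as CPM, counts scaled to one library size, with TMM factors (trimmed mean of M values), which allow for differences in makeup. On that scale the low-dose libraries at 6 h held 52789, 57039 and 56282 CPM of the 5p arm, and the high-dose libraries 65103, 64315 and 82272 CPM. After 24 h the values were 58608, 59649 and 56458 CPM at the low dose and 69070, 62474 and 66173 CPM at the high dose. Every high-dose library lay above every low-dose library on this scale, both within each time and over both times, where the low dose reached 59649 CPM and the high dose began at 62474 CPM. Of all 73 tested names, 8.22% had the 3 high-dose libraries above the 3 low-dose libraries at 6 h, and 15.1% at 24 h, and 1.37%, the 5p arm alone, had all 6 above all 6. Nothing is read from these shares, because miR-274 was selected with the dose difference of its 5p arm known, and the dose values below are given as a description without a test.

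The group means of the 5p arm were higher at the high dose at both times. They were 55370 ± 2267 (SD, n = 3) CPM in low-dose larvae and 70563 ± 10148 CPM in high-dose larvae at 6 h. At 24 h they were 58239 ± 1627 CPM and 65906 ± 3306 CPM. The fitted log2 fold change of high against low dose was 0.35 ± 0.11 (SE) at 6 h and 0.18 ± 0.11 at 24 h, or 1.28-fold and 1.13-fold. Averaged over times it was 0.26 ± 0.08, or 1.20-fold. Without high-dose replicate 3 at 6 h, the highest library on both scales, the value at 6 h was 0.19 ± 0.08.

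The size of the dose difference depended on how the libraries were scaled, whereas its sign did not. At 24 h it was 0.18 with TMM factors, 0.29 with relative log expression (RLE) factors, 0.40 with library totals and 0.56 with upper quartile factors. These scalings also moved the median of all tested names, from -0.16 with TMM factors to -0.05, 0.06 and 0.21. Relative to that median, the 5p arm stood higher by 0.34, 0.34, 0.34 and 0.35 in the same order. At 6 h it stood 0.36 above the median with TMM factors, 0.37 with RLE factors, 0.38 with library totals and 0.39 with upper quartile factors. A change of factors shifts all names of a comparison by nearly the same amount. The distance to the median is therefore almost fixed in advance, and its steadiness is no separate support for the dose difference. With TMM factors, 14 of the 73 names had a larger log2 fold change than the 5p arm at 6 h and 15 did at 24 h.

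**Figure D2:**
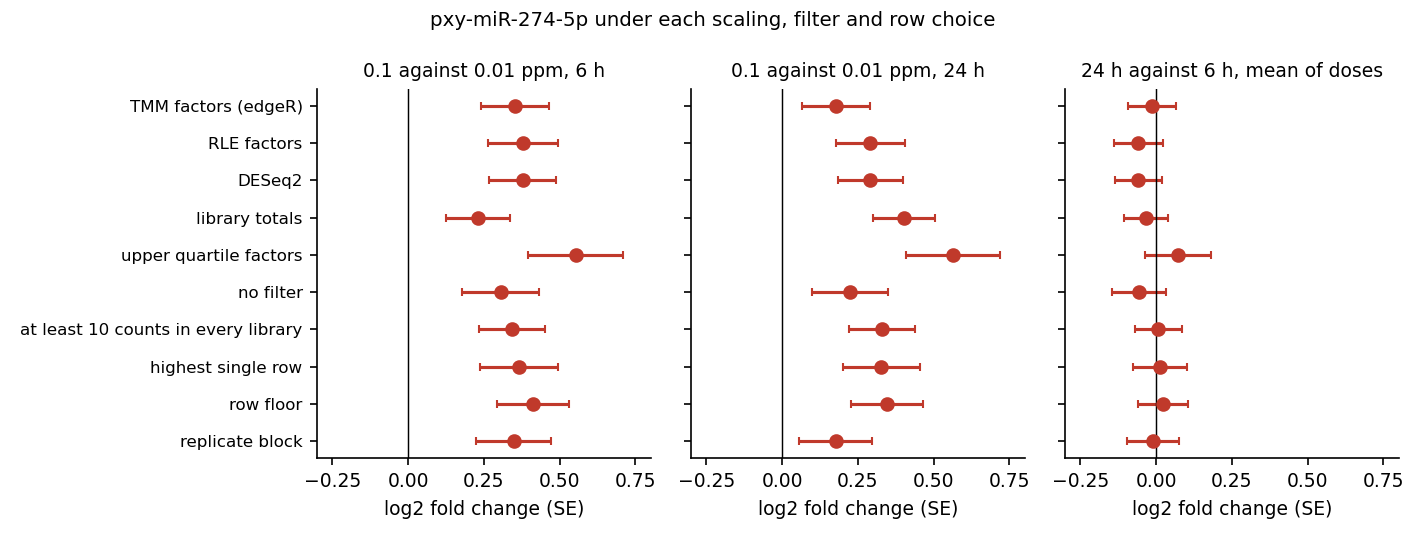
Log2 fold change of pxy-miR-274-5p with its SE under 10 choices of scaling, filter, row and block, for high against low dose at 6 h (left) and 24 h (middle) and for 24 h against 6 h averaged over doses (right). The dose values lie above 0 under each choice, between 0.23 and 0.55 at 6 h and between 0.18 and 0.56 at 24 h, and the time values lie on both sides of 0.

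Time did not shift the 5p arm detectably. Averaged over doses, 24 h against 6 h gave a log2 fold change of -0.01 ± 0.08 (SE, adjusted p = 0.984, edgeR's quasi-likelihood test). P-values were adjusted over 73 names by Benjamini-Hochberg. The 95% interval of the fold change ran from -0.18 to 0.15, or from 0.884-fold to 1.11-fold. In that comparison 8 of the 73 names passed an adjusted p of 0.05, which is 11.0%, and neither arm of miR-274 was among them. At the low dose the value was 0.07 ± 0.11 (adjusted p = 0.75, edgeR), with an interval from -0.16 to 0.31. At the high dose it was -0.10 ± 0.11 (adjusted p = 0.719, edgeR), with an interval from -0.33 to 0.13. In these comparisons 19.2% and 6.85% of the names passed. Each of these 3 time values lay within 1 SE of 0 with TMM factors and had the opposite sign under at least 1 other scaling.

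The dose difference itself was not shown to differ between the times. The difference of the log2 fold changes, 24 h minus 6 h, was -0.17 ± 0.16 (SE) for the 5p arm (adjusted p = 0.577, edgeR interaction term), with a 95% interval from -0.50 to 0.16. Of the 73 names, 8.22% passed this test. With library totals in place of TMM factors the difference was 0.17, the opposite sign, and without high-dose replicate 3 at 6 h it was 0.04. In the design this contrast is orthogonal to the dose difference averaged over times. It is not orthogonal to the dose difference at a single time, and the tests were chosen with earlier results of these data known.

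Replicates of the 5p arm lay close together in most groups. The coefficient of variation (CV) of its CPM was 4.09% in low-dose and 14.4% in high-dose larvae at 6 h, and 2.79% and 5.02% at 24 h. Counting alone would give 3.10% and 2.52% at 6 h, and 2.17% and 2.04% at 24 h. The low-dose groups thus varied little beyond counting error, and the wide group was the high dose at 6 h. The pooled SD within groups was 0.11 on the log2 CPM scale, the 6th smallest of the 73 tested names, whose median was 0.27.

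Among the abundant miRNAs, the 5p arm changed places with pxy-miR-263a-5p, a miRNA whose fly counterpart protects sensory bristle cells from apoptosis. The 2 names above the 5p arm by mean share were pxy-mir-184-3p (8.15%) and pxy-miR-263a-5p (7.05%), and the 2 below it were pxy-miR-9b-5p (3.41%) and pxy-mir-276-3p (3.19%). In 6 of 6 low-dose libraries pxy-miR-263a-5p had more counts than the 5p arm, but in 2 of 6 high-dose libraries. The ratio of the 5p arm to pxy-miR-263a-5p, which needs no scaling between libraries, was 0.649, 0.754 and 0.727 at the low dose and 0.722, 0.902 and 1.23 at the high dose after 6 h. After 24 h it was 0.868, 0.767 and 0.71 at the low dose and 1.08, 1.14 and 1.53 at the high dose. The ratios of the doses did not overlap at 24 h and overlapped at 6 h. Nothing is read from this, as the ratio reuses the dose values with which miR-274 was selected. How many other names stood apart in such a ratio was not counted. At 24 h both miRNAs contribute to this ratio, since pxy-miR-263a-5p had a log2 fold change between doses of -0.47 ± 0.14 (SE). At 6 h its value was -0.04 ± 0.14, within its SE of 0.

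The order against the other neighbours was the same in every library. The 5p arm ranked below pxy-mir-184-3p in 12 of 12 libraries, and above pxy-miR-9b-5p and pxy-mir-276-3p in each of them. By count it was the 6th name in each low-dose library. It was the 5th in each high-dose library at 24 h and in high-dose replicate 3 at 6 h, and the 6th in the other 2 high-dose libraries. The ratio to pxy-mir-276-3p, the name with the smallest spread within groups, averaged 1.65 ± 0.0983 (SD, n = 3) and 2.33 ± 0.239 in low-dose and high-dose larvae at 6 h, and 1.83 ± 0.0349 and 2.08 ± 0.163 at 24 h. Its lowest high-dose value, 1.89 at 24 h, lay just above its highest low-dose value of 1.86. The ratio reuses the dose values with which miR-274 was selected, so nothing is read from this order. Other names were not compared in this way.

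**Figure D3:**
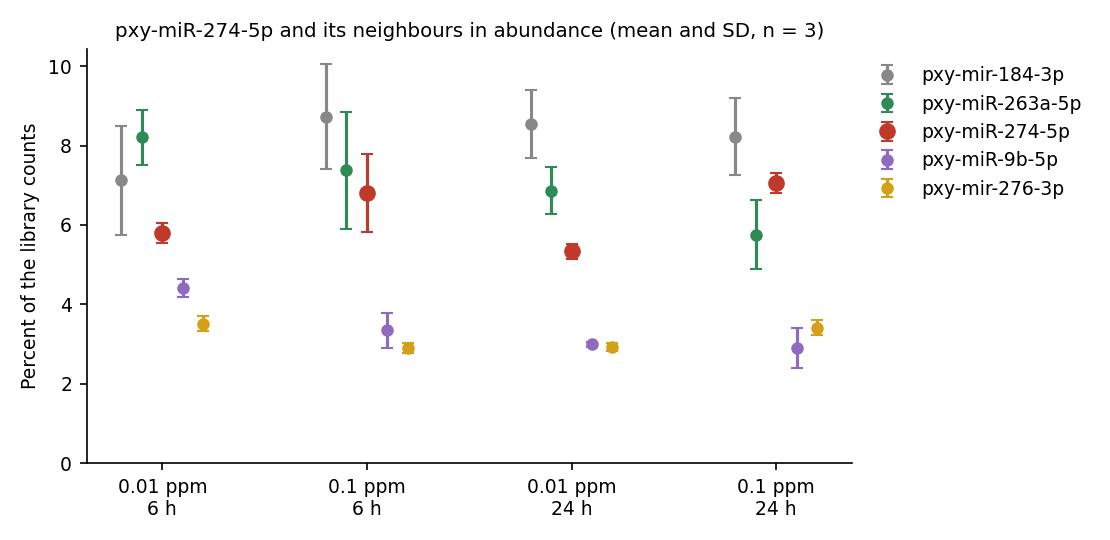
Percent of the library counts (vertical axis) taken by pxy-miR-274-5p and by the 2 names above and the 2 below it in mean abundance, by dose and time. Points are means and bars the SD of 3 libraries. Between pxy-miR-263a-5p and pxy-miR-274-5p the order of the means at 24 h is 6.86% and 5.34% at the low dose, and 5.76% and 7.06% at the high dose.

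A name can fill more than 1 row of a library's table, and the sources used here do not say how such rows differ. For the 5p arm there were 5 to 9 rows per library. The largest row held 76.3% ± 1.48 (SD, n = 12) of the arm's counts, from 73.9% in high-dose replicate 1 to 78.1% in high-dose replicate 2, both at 6 h. The second row held 15.0% ± 1.37, the third 5.75% ± 0.467 and the remaining rows together 3.00% ± 0.455. Rows could be compared only by size, not by identity.

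The division of the 5p arm among its rows differed little between the groups. The largest row held on average 76.9% ± 1.74 (SD, n = 3) and 75.9% ± 2.13 in low-dose and high-dose larvae at 6 h, and 75.7% ± 1.70 and 76.5% ± 0.423 at 24 h. The mean of the doses went from 76.4% at 6 h to 76.1% at 24 h, where low-dose larvae differed by -1.20 and high-dose larvae by 0.61, on average -0.292 percentage points (exact stratified permutation p = 0.74, two-sided, 400 regroupings, adjusted p = 1 over 3 measures). The share of the second row was 1.02 percentage points higher at 24 h at the low dose, whereas the high-dose difference was -1.03. These average to -0.00233 (exact stratified permutation p = 1, adjusted p = 1), and the values by dose were not tested. With the largest row alone counted, the dose values of the 5p arm were 0.37 at 6 h and 0.33 at 24 h. Among the 20 most abundant names, the share of the largest row ran from 46.6% for pxy-miR-281-5p to 98.7% for pxy-miR-279b-3p, and the 5p arm was the 12th from the top.

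**Figure D4:**
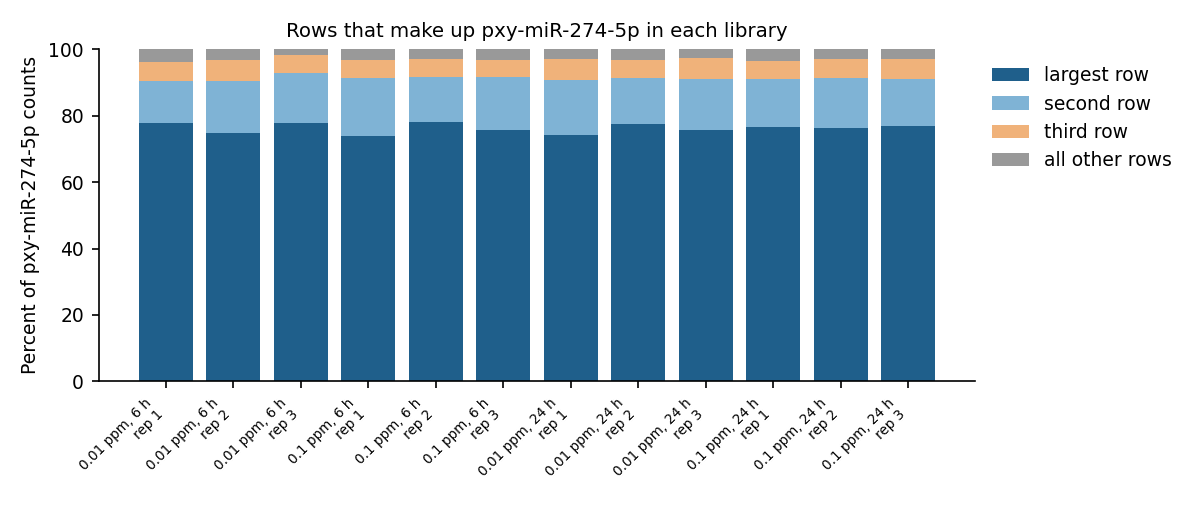
Percent of the pxy-miR-274-5p counts (vertical axis) held by its largest row, the second, the third and by all other rows, in each of the 12 libraries. The largest row holds 73.9% to 78.1% and the second 12.5% to 17.4%.

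The 3p arm was near the limit of what these files list. It was listed in 10 of 12 libraries, with 6 to 20 counts, and in none of these with more than 2 rows. At 6 h the low-dose libraries 1 and 3 held 16 and 20 counts and the high-dose libraries 1 and 3 held 10 and 14. Low-dose replicate 2, the shallowest library with 10714 counts, and high-dose replicate 2, with 25815 counts, did not list it. At 24 h the low-dose libraries held 16, 16 and 9 counts and the high-dose libraries 6, 13 and 7. The counts were thus no higher at 24 h, although the totals of those libraries were 28682 to 41214. The largest row of the 3p arm held 5 to 13 counts, close to the lowest value listed.

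No difference between times passed the test for the 3p arm. Where listed it stood at 483 and 908 CPM at the low dose and 505 and 569 CPM at the high dose after 6 h. After 24 h it stood at 463, 421 and 240 CPM at the low dose and 207, 344 and 156 CPM at the high dose. Where listed, the values ran from 483 to 908 CPM at 6 h and from 156 to 463 CPM at 24 h. The 2 libraries that do not list the 3p arm are both from 6 h, so the times cannot be said to stand apart. In the fit, in which the libraries that do not list it enter as 0, 24 h against 6 h gave -0.55 ± 0.57 (SE, adjusted p = 0.662, edgeR), with a 95% interval from -1.75 to 0.66. At the low dose it was -0.51 ± 0.75 (adjusted p = 0.75, edgeR) and at the high dose -0.58 ± 0.86 (adjusted p = 0.806, edgeR). The dose values, given without a test, were -0.59 ± 0.82 at 6 h and -0.66 ± 0.79 at 24 h. Their difference between times was -0.07 ± 1.11 (adjusted p = 1.00, edgeR interaction term), with an interval from -2.39 to 2.24. With these libraries entered as 0, the pooled SD of the 3p arm within groups was 1.40 on the log2 CPM scale, the second largest of the 73 tested names. That value includes the 2 unlisted libraries at 6 h, and the listed values within a group lay closer together.

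Both arms together therefore consisted almost wholly of 5p counts. The 3p arm made up 0.236% to 1.59% of the counts of both arms in the 10 libraries that list it, with a median of 0.694%. The highest share, 1.59% (exact 95% binomial interval 0.972% to 2.44%), was in low-dose replicate 3 at 6 h. The lowest, 0.236% (0.0947% to 0.485%), was in high-dose replicate 3 at 24 h. The ratio of 5p to 3p counts ran from 62.0 to 424 with a median of 143. Because rows under 5 counts are absent, a ratio may overstate the imbalance.

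Of the names in the files, 23 miRNAs had both arms listed together in at least 1 library, and the mean log2 ratio of miR-274 was the most unequal of them. Its geometric mean ratio was 164-fold in favour of the 5p arm. Next were pxy-miR-9a with 110-fold for 5p in 4 libraries, and pxy-mir-11 with 107-fold and pxy-mir-276 with 103-fold for 3p in 2 libraries and 1. Among the 12 miRNAs with both arms in 10 or more libraries, the following ones were pxy-miR-9b with 89.1-fold, pxy-miR-10 with 58.1-fold, pxy-mir-14a with 46.0-fold for 3p and pxy-miR-281 with 38.9-fold. The remaining 7 had ratios from 6.53-fold for pxy-miR-14b down to 1.12-fold for pxy-mir-927. These ratios are a description, since a minor arm can be listed only where its major arm is abundant or the arms are alike, and the order of the first few rests on minor arms with a median of 5 to 13.5 counts. A miRNA with only 1 arm listed has no ratio and may be as unequal as miR-274 or more so. Among these were pxy-mir-31-5p (12.4% of the counts), pxy-mir-184-3p (8.15%) and pxy-miR-263a-5p (7.05%), each more abundant than the 5p arm of miR-274. Standing first among the 23 therefore does not set miR-274 apart from them.

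**Figure D5:**
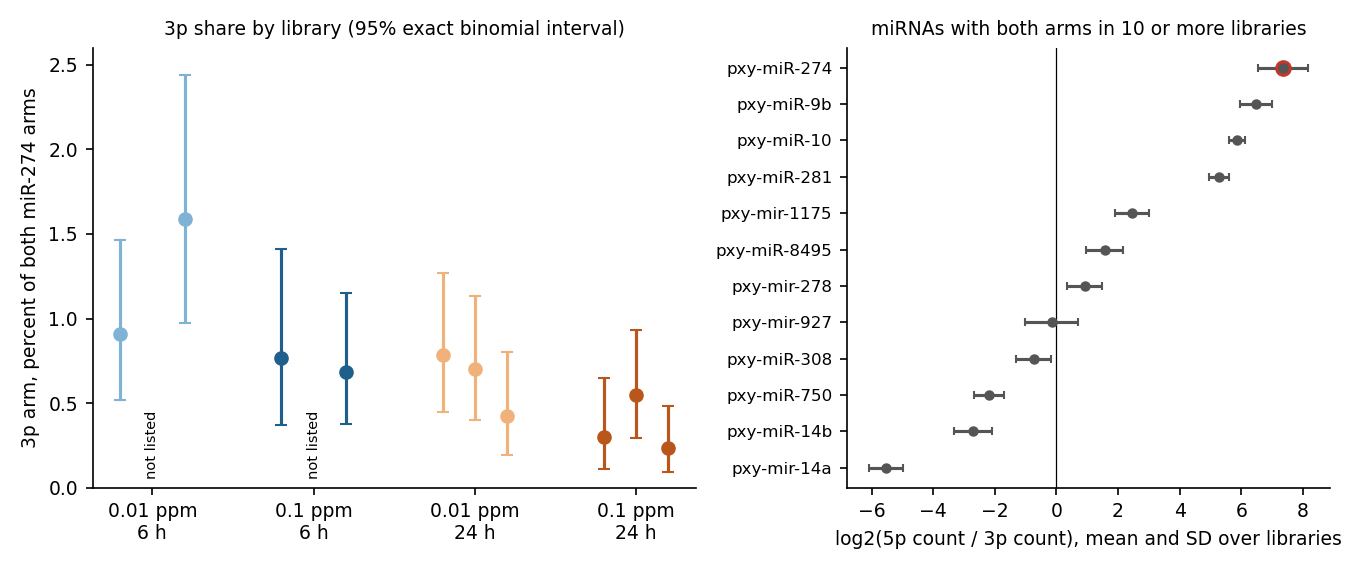
Left, the 3p arm as percent of the counts of both miR-274 arms in each library, with exact 95% binomial intervals, by dose and time. Right, the log2 ratio of 5p to 3p counts, as mean and SD over libraries, for the 12 miRNAs with both arms in 10 or more libraries. The 3p share is 0.687% to 1.59% in the 4 libraries at 6 h that list it and 0.236% to 0.784% at 24 h, and miR-274 stands farthest towards 5p.

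The ratio of the arms was higher after 24 h than after 6 h in the libraries that list both arms, but the difference did not pass adjustment. At 6 h the ratios of 5p to 3p counts were 109 and 62.0 at the low dose and 129 and 145 at the high dose. At 24 h they were 127, 142 and 235 at the low dose and 334, 182 and 424 at the high dose. Among these libraries the 24 h ratios lay above the 6 h ratios at each dose, and other arm pairs were not compared in this way. The highest ratios, 235, 334 and 424, came from the libraries that list the 3p arm in 1 row. The others that list it have 2 rows. A second row under 5 counts would be absent and its loss would raise the ratio, so the rise at 24 h may rest partly on unlisted rows. This was not tested. The mean log2 ratio was 6.73 at 6 h and 7.77 at 24 h, higher by 1.04 (exact stratified permutation p = 0.03, two-sided, 100 regroupings, 10 libraries, adjusted p = 0.09 over 3 measures). Depth moves with time here, as the 24 h libraries were mostly the deeper ones, and its part in the result was not tested. The totals overlapped, at 30676 in low-dose replicate 1 at 6 h and 28682 in high-dose replicate 1 at 24 h. The 2 libraries left out are both from 6 h. Setting their 3p arm at 4 counts, a choice made after seeing the data, gave ratios of 151 and 386 for them and a difference of 0.65 (exact permutation p = 0.1). With these ratios the times overlapped at each dose. At 8 counts the ratios were 75.3 and 193 and the difference 0.98 (exact permutation p = 0.01), and the times overlapped at the high dose.

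The tested names whose log2 CPM ran most alike with the 5p arm over the 12 libraries were led by pxy-miR-9a-5p, with a Pearson r of 0.59. Its fly counterpart restrains the formation of sensory organ precursors. It was followed by pxy-mir-1175-5p (0.56), pxy-miR-10-3p (0.54), pxy-miR-8495-3p (0.54) and pxy-miR-10-5p (0.53). The median over the other 72 names was -0.08. With group means removed the values of these names were 0.63, 0.63, 0.54, 0.65 and 0.36. Other names then stood higher, among them pxy-mir-iab-4-5p (0.76) and pxy-mir-279c-3p (0.71). Spearman's rho of the first 5 names was 0.57, 0.48, 0.69, 0.45 and 0.50 in the order given. These values are a description without a test, and all names of a library share its depth and scaling factor.

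The names that ran most opposite to the 5p arm were pxy-miR-2a-3p (r = -0.81, rho = -0.85), pxy-let-7-3p (-0.72, rho = -0.48) and pxy-mir-11-3p (-0.66, rho = -0.39). With group means removed these were -0.76, -0.42 and -0.83, and pxy-mir-970-3p (-0.95) and pxy-miR-281-5p (-0.90) ran more opposite than any of them. The order over the 12 libraries includes the dose difference with which miR-274 was selected. For pxy-miR-2a-3p the log2 fold change of high against low dose was -0.38 at 6 h and -0.34 at 24 h, beside 0.35 and 0.18 for the 5p arm. For pxy-mir-11-3p the dose values were -0.07 and -0.16. Levels of pxy-let-7-3p rest on a mean share of 0.0297% of the counts, and it was listed in 9 of 12 libraries. The libraries that do not list it, all at the high dose, entered the correlation as 0 counts.

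As miR-274 is known from fly glia, miRNAs of families with a described role in the nervous system or sense organs of *Drosophila* were set beside it. Of 20 such families, 9 were found under 19 names, of which 14 could be tested. Between 24 h and 6 h, averaged over doses, 1 of the 14 rose, 1 fell and 12 did not pass. Of all 73 names, 8.22% rose and 2.74% fell. The one that rose was pxy-let-7-5p, a timing miRNA (log2 0.59 ± 0.13 SE, adjusted p = 0.00776, edgeR), and the one that fell was pxy-miR-14b-5p (-0.86 ± 0.17, adjusted p = 0.00399, edgeR). Next were pxy-miR-263a-5p (-0.28 ± 0.10, adjusted p = 0.0716) and pxy-mir-14a-3p (0.27 ± 0.10, adjusted p = 0.0745), which did not pass. The median of the list was -0.07, beside 0.05 over all tested names. Between doses, averaged over times, 1 rose, 1 fell and 12 did not pass, against 4.11% of all names that rose, 9.59% that fell and 13.7% in all, and the median was -0.18 beside -0.04. The value of the 5p arm of miR-274, which is not in the list, was 0.26 in the same comparison.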

How the data were processed

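Small RNA libraries of 12 samples were made with a TruSeq kit and sequenced on an Illumina HiSeq with 50 nt reads, per the labels' protocols. The deposited values are raw counts per row, with a name and a count, per the file headers. The sources used here do not state how reads were assigned to names. All deposited rows hold at least 5 counts. The rows of each name were added up.

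The fit was tested on simulated data. All names were fitted together with edgeR 4.0.16 in R 4.3.3: filterByExpr with a minimum count of 10, TMM factors, and the quasi-likelihood test on 4 group means with 8 residual degrees of freedom. P-values were adjusted over 73 names by Benjamini-Hochberg, with a threshold of 0.05. Standard errors were derived from the log2 fold change and the F statistic. Log2 CPM used a prior count of 2.

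The arm ratio was compared between times by an exact permutation test within doses, over the 10 libraries that list the 3p arm, in place of the 12 first intended. Intervals of shares are exact (Clopper-Pearson) and cover counting error only, since no molecular identifiers are named. Alternatives were DESeq2 1.42.0, other factors and filters, the highest row, a row floor of 5 counts in the shallowest library, applied to each library as a share of its total, the replicate number as a block, each library left out in turn, and fits of the compared groups alone. Named miRNAs were the 2 names on either side of the 5p arm in abundance, the 5 most and 3 least alike over the libraries, up to 4 of the nervous system list by p, and arm pairs. The members, the list and the tests were chosen with earlier results of these data known.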

Additional observations from a re-analysis of the deposited data

How the results depend on the processing

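The dose value of the 5p arm kept its sign under every alternative run, and its size moved by more than its SE under some. Averaged over times it was 0.56 with upper quartile factors and 0.38 with the row floor, beside 0.26. At 6 h it was 0.23 with library totals and 0.55 with upper quartile factors, beside 0.35. At 24 h, beside 0.18, it was 0.29 with DESeq2 or RLE factors, 0.40 with library totals, 0.56 with upper quartile factors, and 0.33, 0.33 and 0.35 with at least 10 counts in every library, the highest single row and the row floor. With 1 library left out it ran from 0.21 to 0.37 on average, from 0.19 to 0.45 at 6 h and from 0.21 to 0.33 at 24 h.

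No time or interaction value of either arm passed under any alternative, and those near 0 turned sign. For the 5p arm averaged over doses they were 0.073 (upper quartile), 0.0073 (at least 10 counts), 0.014 (highest row) and 0.022 (row floor). At the low dose they were -0.015 (DESeq2), -0.016 (RLE or no filter) and -0.12 (library totals), and at the high dose 0.053 (library totals), 0.078 (upper quartile) and 0.00075 (at least 10 counts). The interaction was 0.17 (library totals) and 0.012 (upper quartile). For the 3p arm the interaction was 0.0063 (RLE), 0.29 (library totals), 0.10 (upper quartile) and 0.34 (highest row). With 1 library left out the 5p values ran from -0.11 to 0.0061 averaged over doses, -0.042 to 0.074 at the low dose, -0.21 to 0.019 at the high dose and -0.19 to 0.037 for the interaction. Those of the 3p arm ran from -0.93 to -0.26, -0.89 to 0.048, -1.23 to 0.0018 and -0.62 to 0.61. Its dose values ran from -1.23 to 0.09 at 6 h and from -1.06 to -0.28 at 24 h. The row floor and the filter of 10 counts left no value for the 3p arm or, with the floor, for the arm ratio.

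Calls between times, averaged over doses, numbered 8, with 5 at the filter of 10 counts, 4 with the row floor, and 4 to 12 with 1 library left out. The arm ratio difference of 1.04 ran from 0.84 to 1.25 with 1 library left out, with p = 0.05 at most (exact permutation), and was 0.69 with the highest row and 0.65 with the unlisted arm at 4 counts. The cause of these shifts was not tested. Same-numbered replicates did not deviate together: 5 of 18 pairs correlated above 0.1, with a median of -0.08. With the replicate block the 5p time value was -0.01 and the arm ratio difference 1.26 over 4 pairs (exact sign-flip p = 0.125, the smallest it allows). Calls between times numbered 7 under it, and no time or interaction value of either arm passed. Values of the 3p arm rest on 20 counts or fewer per library.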
